A study of Mus musculus with 16 samples.

Results

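The GIMAP genes encode the GTPases of immunity-associated proteins, and 8 of the 49568 gene symbols in the count table carry a member's name: Gimap1, Gimap3, Gimap4, Gimap5, Gimap6, Gimap7, Gimap8 and Gimap9. Membership followed the gene symbol alone, except that Gimap6 drew attention to the family because it was chosen by its measured strain-by-injury pattern. The values of Gimap6 are therefore given as a description with no test, and every count of members called covers the other 7 genes. RNA was sequenced from the deep digital flexor tendon of the hind paw of young adult male mice of 2 inbred strains, C57BL/6J (C57) and MRL/MpJ (MRL), the latter a strain known for regenerative healing. In each strain 4 tendons were uninjured and 4 were collected 7 days after a partial laceration (7 days post injury, dpi), which made 16 libraries in 4 groups, each from the tendon of 1 animal. Both strains carried no transgene or deletion named in the labels, and the sheath and tissue around the tendon stayed on the samples.

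GIMAP proteins are GTP-binding proteins, many of which sit on intracellular membranes, and their genes lie side by side in 1 cluster. They are best known from lymphocytes, where several members govern survival: loss of Gimap5 depletes T cells in mice and rats, and Gimap1 is needed for mature T and B cells. Gimap3 is a close relative of Gimap5, Gimap4 influences T cell death, and Gimap6 binds an autophagy protein of the ATG8 family, GABARAPL2. Some members are also made by vascular endothelium. The main cells of tendon are tenocytes, fibroblasts that make its collagen, and vessels and immune cells are few in it at rest.

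The libraries held between 12552424 and 23741648 counts, so that 3 counts in a library corresponded to 0.126 to 0.239 CPM (counts scaled to the size of the library) on these raw totals. All other CPM given here use library sizes adjusted by the TMM method. The tendon genes Scx, Mkx and Tnmd were counted in every library, Scx at 662 to 4377 counts. A check of strain went against 2 labels. Among the injured libraries, 20 genes were seen in C57 only and 41 in MRL only, taking at least 20 counts in all 4 libraries of one strain and at most 2 in all 4 of the other. The C57 uninjured replicates 1 to 3 held 17 to 19 of the 20 C57 genes above 2 counts and 2 to 5 of the 41 MRL genes. The library labelled C57 uninjured replicate 4 held 4 of the 20 and 40 of the 41. The MRL uninjured replicates 1 to 3 held 2 to 6 of the 20 and 40 to 41 of the 41, whereas the library labelled MRL uninjured replicate 4 held 16 of the 20 and 4 of the 41. The library labelled C57 uninjured replicate 4 also held 75030 CPM over 12 epidermal genes, against 153 to 833 CPM in the other C57 uninjured libraries. Both libraries were kept in their labelled groups, and results that rest on them are also given without both. At 7 dpi, C57 replicates 1 and 2 held 70477 and 2096 CPM over 12 skeletal muscle genes, against 2 to 13 CPM in the other 14 libraries.

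**Figure D1:**
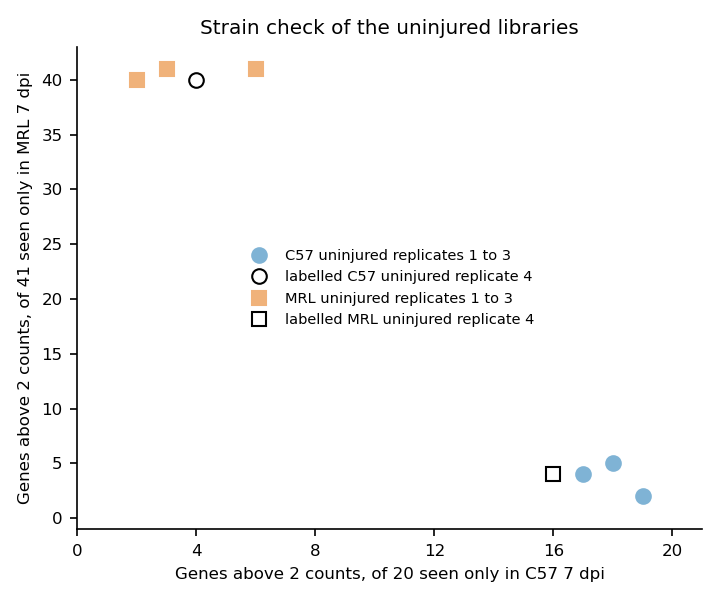
Strain check of the 8 uninjured libraries, plotting for each library how many of 20 genes seen only in C57 at 7 dpi (x axis) and of 41 genes seen only in MRL at 7 dpi (y axis) were above 2 counts. The library labelled C57 uninjured replicate 4 (open circle, 4 and 40 genes) sat among the MRL libraries, and the library labelled MRL uninjured replicate 4 (open square, 16 and 4 genes) among the C57 libraries.

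The members span 123618 bases of mouse chromosome 6 (GRCm38), from 48647234 to 48770851, in the order Gimap8, Gimap9, Gimap4, Gimap6, Gimap7, Gimap1, Gimap5 and Gimap3. Gimap6 (48701582 to 48708225) and Gimap3 lie on the minus strand and the other 6 on the plus strand. The annotated exons of Gimap6, Gimap9, Gimap4, Gimap8 and Gimap3 overlap no other gene. Gimap1 shares 36% of its exon bases with the antisense transcript Gimap1os and the readthrough gene Gm28053, so its reads are uncertain where the counting did not use strand. Gm28053 had no count in any library, and Gimap1os at most 3. Of the 100-base windows of the Gimap3 and Gimap5 transcripts, 41 are identical between these 2 genes, which is 1.65% of the windows of Gimap3.

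The upstream sequences of 4 members are shown because Gimap6 and Gimap9 correlated over the 16 libraries, while Gimap1 and Gimap5 did not overlap between the injured strains. Each is the 250 bases before the RefSeq transcript start (GRCm38.p6), 5′ to 3′ on the strand of the gene. Capitals mark matches, on either strand, to 4 short motifs. These are GGAAGT, the core of sites for ETS family factors, and TGTGGT, the core of sites for RUNX factors. The third is TATAAA, the box found before some transcript starts. The last is GATAAG, the core of sites for factors of the same name. None of these motifs overlap in the sequences shown.
Gimap6, chr6:48708245-48708494, minus strand: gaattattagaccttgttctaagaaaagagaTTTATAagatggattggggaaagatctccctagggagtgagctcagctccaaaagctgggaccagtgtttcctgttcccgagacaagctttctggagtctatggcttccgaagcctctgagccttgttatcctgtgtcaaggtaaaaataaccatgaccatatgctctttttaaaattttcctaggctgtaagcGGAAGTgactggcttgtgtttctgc
Gimap9, chr6:48675885-48676134, plus strand: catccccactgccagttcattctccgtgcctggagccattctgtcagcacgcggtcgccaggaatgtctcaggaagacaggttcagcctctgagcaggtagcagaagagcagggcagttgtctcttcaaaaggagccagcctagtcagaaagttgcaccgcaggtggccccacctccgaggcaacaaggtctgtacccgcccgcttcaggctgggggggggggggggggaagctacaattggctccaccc
Gimap1, chr6:48738797-48739046, plus strand: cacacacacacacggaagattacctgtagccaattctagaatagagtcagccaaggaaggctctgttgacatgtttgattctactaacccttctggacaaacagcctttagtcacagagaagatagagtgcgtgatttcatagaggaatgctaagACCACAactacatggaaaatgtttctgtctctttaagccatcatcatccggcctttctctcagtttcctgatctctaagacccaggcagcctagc
Gimap5, chr6:48745947-48746196, plus strand: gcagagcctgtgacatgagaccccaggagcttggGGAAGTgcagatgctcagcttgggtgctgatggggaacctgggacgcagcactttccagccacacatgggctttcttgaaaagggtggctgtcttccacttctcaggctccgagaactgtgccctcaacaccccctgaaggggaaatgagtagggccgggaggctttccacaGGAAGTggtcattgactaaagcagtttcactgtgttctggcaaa
Gimap6 held 1 GGAAGT match, which ended 20 bases before the transcript start, and 1 TATAAA match on the complement strand, 214 bases before it. Gimap5 held GGAAGT at 2 places, 39 and 211 bases before the start. Gimap1 held 1 TGTGGT match on the complement strand, which was also present in Gimap4 and Gimap7, and Gimap9 held none of the 4 motifs. Of 32851 upstream windows of the same length over all genes, GGAAGT was in 19.7%, TGTGGT in 14%, TATAAA in 12.4% and GATAAG in 6.55%. The members' windows were unlike in base composition, with a GC content of 43.6% for Gimap6, 44.4% for Gimap1, 55.6% for Gimap5 and 61.2% for Gimap9. A match is a match of letters, and no binding was measured.

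Gimap6 was the main GIMAP transcript of these tendons. It took 72.7% of all counts of the family and was the single member counted in all 16 libraries. Per kilobase of exon its mean level over the 16 libraries was 6.77 ± 4.84 CPM per kb (SD), followed by Gimap4 at 1.94 ± 1.81, Gimap9 at 1.58 ± 1.33, Gimap1 at 0.487 ± 0.588, Gimap5 at 0.199 ± 0.267, Gimap8 at 0.132 ± 0.157, Gimap3 at 0.0838 ± 0.191 and Gimap7 at 0.00497 ± 0.0199. Gimap6 was above Gimap4 per kb in 14 of 16 libraries. The order did not hold in uninjured C57 tendon. Gimap4 and Gimap6 stood at 4.86 and 2.23 CPM per kb in C57 uninjured replicate 1 and at 1.93 and 1.88 in replicate 3. Their means over C57 uninjured replicates 1 to 3 were 2.55 and 1.88 CPM per kb. Gimap4 was above Gimap9 in 11 of 16, and from Gimap4 down every member differed from the next by less than its own SD. Leaving out both libraries labelled uninjured replicate 4, Gimap6 made up 34.6% to 66.3% of the family's CPM in C57 tendons and 75.6% to 87.9% in MRL tendons. In the libraries labelled C57 and MRL uninjured replicate 4 the share was 75.4% and 78.3%, so the latter was not on the side of the strain with which its strain-specific genes placed it. These shares include the levels for which Gimap6 was chosen and are a description.

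**Figure D2:**
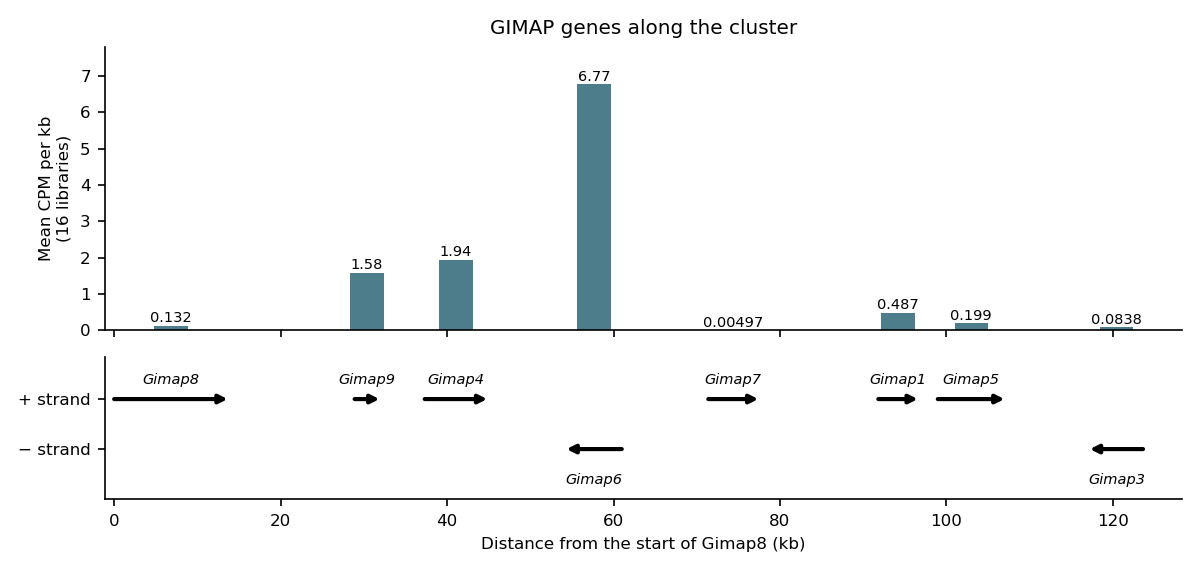
The 8 GIMAP genes along their cluster (x axis, distance from the start of Gimap8 in kb, arrows pointing in the direction of transcription), with the mean CPM per kb of exon over the 16 libraries above each gene (bars, y axis). Gimap6 stands at 6.77 CPM per kb, Gimap4 and Gimap9 at 1.94 and 1.58, and the others below 0.5.

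In uninjured C57 tendons Gimap6 stood at 7.79, 5.38 and 6.56 CPM in replicates 1 to 3 and at 17.0 CPM in the library labelled replicate 4. In C57 tendons at 7 dpi it stood at 24.2, 24.6, 14.2 and 34.5 CPM. Uninjured MRL tendons held the highest levels, 36.6, 52.5 and 62.1 CPM in replicates 1 to 3, while the library labelled replicate 4 held 3.78 CPM. MRL tendons at 7 dpi held 17.7, 28.7, 31.7 and 11.2 CPM. Thus the strains overlapped at 7 dpi, whereas in uninjured tendon replicates 1 to 3 stood far apart. There the library labelled MRL replicate 4 lay below all C57 libraries and the one labelled C57 replicate 4 lay between the strains. As a description of the pattern by which Gimap6 was selected, its fitted log2 difference between 7 dpi and uninjured was 1.35 in C57 and -0.79 in MRL, and between MRL and C57 it was 2.03 in uninjured and -0.16 in injured tendons. The difference between the strains' injury responses was -2.19. Without both libraries labelled uninjured replicate 4 these values were 1.86, -1.15 and 2.93, and the difference between responses was -3.07. Without both, no uninjured C57 library reached the lowest C57 library at 7 dpi, and no MRL library at 7 dpi reached the lowest uninjured MRL library. In bulk tissue, fewer cells of a type and less RNA per cell cannot be told apart.

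**Figure D3:**
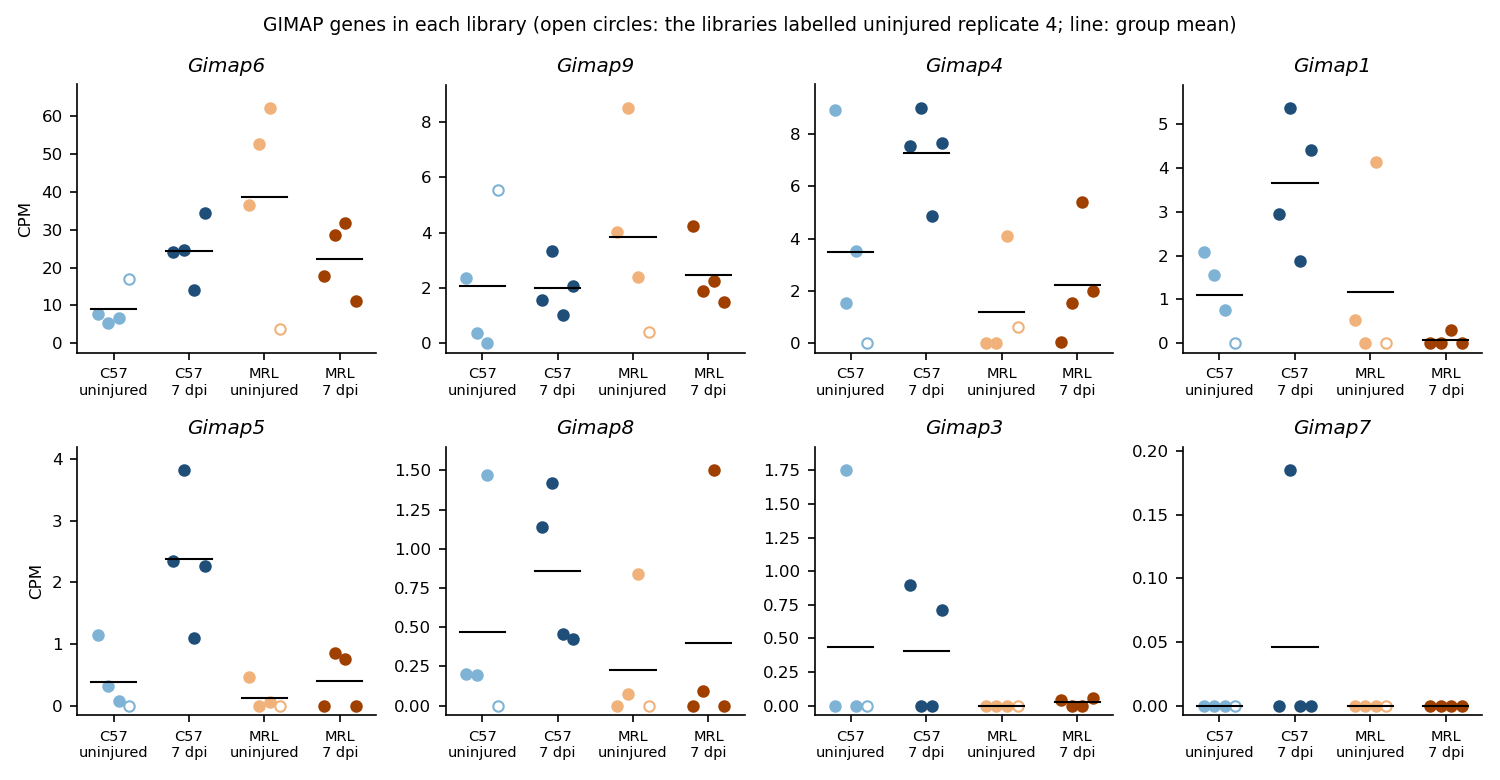
Level of each GIMAP gene in every library (y axis, CPM on a linear scale that differs between panels; x axis, the 4 groups of 4 libraries). Points are libraries, lines are group means and open circles are the libraries labelled uninjured replicate 4. Gimap6 reached 62.1 CPM in uninjured MRL tendon, whereas Gimap1 and Gimap5 were highest in C57 tendon at 7 dpi, up to 5.36 and 3.82 CPM.

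Gimap9, one of the less studied members, showed an uneven level of a few CPM. It stood at 2.35, 0.389 and 0 CPM in uninjured C57 replicates 1 to 3 and at 5.55 CPM in the library labelled replicate 4, and at 1.56, 3.33, 1.04 and 2.06 CPM in C57 tendons at 7 dpi. Uninjured MRL tendons held 4.04, 8.51 and 2.39 CPM and the library labelled replicate 4 held 0.402 CPM, and MRL tendons at 7 dpi held 4.24, 1.9, 2.25 and 1.5 CPM. Hence the libraries labelled uninjured replicate 4 lay apart from their groups in Gimap9 in the same directions as in Gimap6. Without both, uninjured MRL tendons were above uninjured C57 tendons in every library, and the fitted log2 difference was 2.41 (SE 1.16, adjusted p = 0.31, edgeR), which did not pass the test. With all libraries it was 0.82 (SE 1.31, adjusted p = 0.892, edgeR).

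Gimap4, which acts in T cell death, was highest in C57 tendon at 7 dpi. Uninjured C57 tendons held 8.93, 1.55 and 3.55 CPM in replicates 1 to 3 and 0 in the library labelled replicate 4, and injured C57 tendons 7.56, 9.0, 4.86 and 7.66 CPM. It was at 0, 0, 4.12 and 0.643 CPM in the libraries labelled uninjured MRL and at 0.042, 1.54, 5.42 and 2.0 CPM in injured MRL tendons. The injured groups overlapped through MRL injured replicate 3 alone. Their fitted log2 difference, MRL minus C57, was -1.72 (SE 0.90, adjusted p = 0.303, edgeR).

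Gimap1, the member required by mature lymphocytes, separated the injured strains. Its levels were 2.94, 5.36, 1.88 and 4.4 CPM in C57 tendons at 7 dpi, and in MRL tendons at 7 dpi 3 libraries had no count and 1 had 0.309 CPM, which was 7 counts. In uninjured tendons it stood at 2.08, 1.55 and 0.771 CPM in C57 replicates 1 to 3, at 0.53, 0 and 4.12 CPM in MRL replicates 1 to 3, and at 0 in both libraries labelled replicate 4. Gimap1 was lower in MRL than in C57 tendons at 7 dpi by a log2 difference of -5.44 (SE 1.27, adjusted p = 0.0449, edgeR's quasi-likelihood test with Benjamini-Hochberg adjustment). The call rested on 227 counts in the 4 C57 libraries and 7 in the 4 MRL libraries, so that Gimap1 passed the filter on low counts through the C57 group alone. It was near the threshold: it was lost in 7 of 8 fits that each left out 1 library, where the adjusted p ran from 0.0178 to 0.114. The fit without MRL injured replicate 3, which held all 7 counts of the MRL group, was the one that kept it. The log2 difference was -9.03 in that fit and ran from -9.03 to -4.98 over the 8 fits. Over all alternatives the adjusted p ran from 1.82e-05 (DESeq2) to 0.12 (edgeR, 1 fit over all 16 libraries). Without C57 injured replicate 1, the library with the most skeletal muscle RNA, the log2 difference was -5.52 (adjusted p = 0.077, edgeR).

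Gimap5, the member whose loss depletes T cells, was likewise higher in all C57 than in all MRL libraries at 7 dpi, at lower levels. C57 tendons at 7 dpi held 2.34, 3.82, 1.1 and 2.27 CPM, and MRL tendons at 7 dpi held 0, 0.862, 0.749 and 0 CPM. Uninjured tendons held 1.14, 0.324 and 0.0771 CPM in C57 replicates 1 to 3 and 0.464, 0 and 0.0597 CPM in MRL replicates 1 to 3, with no count in either library labelled replicate 4. The log2 difference between the injured strains of -2.57 (SE 1.23, adjusted p = 0.264, edgeR) did not pass the test. Within C57 the difference between 7 dpi and uninjured was 2.57 (SE 1.14, adjusted p = 0.329, edgeR), and without both doubtful libraries 2.16 (SE 0.94, adjusted p = 0.231, edgeR). When single libraries were left out it ran from 2.16 to 4.03, the latter without C57 uninjured replicate 1.

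The last 3 members were near the limit of detection. Gimap8, the largest member with several GTPase domains, ranged from 0 to 1.5 CPM and was at or below 3 counts in 9 of 16 libraries. It stood at 1.14, 1.42, 0.454 and 0.426 CPM in C57 tendons at 7 dpi, and in each other group 1 library was at 0.836 CPM or above and the other 3 at or below 0.201 CPM. Gimap3 was seen at 1.75 CPM in uninjured C57 replicate 2 and at 0.9 and 0.71 CPM in injured C57 replicates 1 and 4. No library labelled MRL held more than 1 count of it. Gimap7, a member that acts on other GIMAP GTPases, had 3 counts in C57 injured replicate 2 and none elsewhere. A count of 0 in these libraries allows a level of up to 0.126 to 0.239 CPM on the raw totals. The other genes annotated inside the cluster, 2 lincRNAs, a pseudogene, Gimap1os and Gm28053, had between 0 and 6 counts in a library.

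Of the family, 1 member passed the test in 1 comparison. For C57 injury, 4 of the 7 members could be tested and 0 were called (adjusted p under 0.05 and a change of over 1 on the log2 scale), against a background of 1.07% of 14424 genes. For MRL injury 2 could be tested and 0 were called, against 7.41% of genes. Between the injured strains 4 could be tested and Gimap1 was called, against 3.43% of genes. Since Gimap1 entered this comparison through the group in which it was high, that count is no support for a change in the family. Between the uninjured strains 3 could be tested and 0 were called, against 0% of genes, and 0 of 5 tested were called for the interaction of strain and injury, also against 0% of genes. At an unadjusted p under 0.05 there was 1 member in the interaction (Gimap1, log2 difference of responses -5.50, SE 2.32, and -5.49, SE 2.01, without both doubtful libraries) and 0 in both injury comparisons and between the uninjured strains, all by edgeR. DESeq2 called 0 members in these 4 comparisons and 1 between the injured strains, again Gimap1. At an unadjusted p under 0.05 by DESeq2 there were also Gimap5 for C57 injury, beside 2869 of 25437 genes, and Gimap4 and Gimap5 between the injured strains, beside 4269 of 26472 genes. Over all genes, the 0 calls of edgeR stood beside 1106 genes at an unadjusted p under 0.05 between uninjured strains and 1939 in the interaction, and DESeq2 called 104 and 210.

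Without both libraries labelled uninjured replicate 4, 0 of 6 members tested were called for C57 injury, against 5.01% of genes. There 1 member, Gimap5, was at an unadjusted p under 0.05 by edgeR, as were 3149 of 14983 genes. Gimap5 passed the filter through the injured group, so nothing is read from this. For MRL injury 0 of 2 were called, against 6.11%. Between the uninjured strains 0 of 3 were called, against 3.48%, and in the interaction 0 of 6, against 0%, where 1735 genes had an unadjusted p under 0.05. Members that passed the filter on low counts are not all members: Gimap7 was tested in none of these fits.

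Separation of groups was also counted. At 7 dpi, 2 of 4 members tested (Gimap1 and Gimap5) had every C57 library above every MRL library, as did 7.58% of all genes. Both passed the filter through the C57 libraries, with no count in 3 of 4 (Gimap1) and 2 of 4 (Gimap5) MRL libraries, so nothing is read from this share. Without both doubtful libraries, 0 of 6 members other than Gimap6 had every injured C57 library above every uninjured one (11.6% of genes). Likewise 0 of 2 had every uninjured MRL library above every injured one (13% of genes), and 1 of 3, Gimap9, had every uninjured MRL library above every uninjured C57 library (13.1% of genes).

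**Figure D4:**
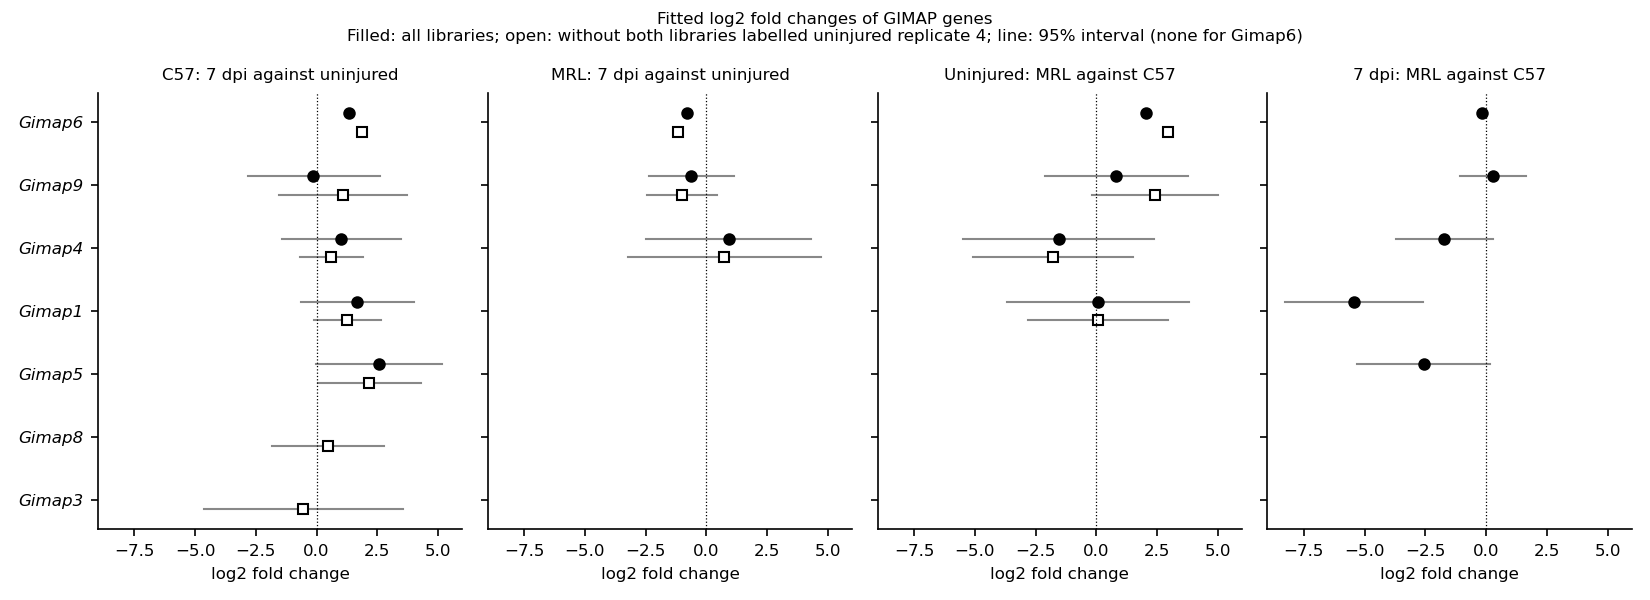
Fitted log2 fold changes (x axis) of 7 GIMAP genes (y axis) in 4 comparisons, with all libraries (filled circles) and without both libraries labelled uninjured replicate 4 (open squares), lines being 95% intervals on the degrees of freedom of the test. Genes with no point were below the filter on low counts, and Gimap6 has no interval because it was chosen for its pattern. The intervals crossed 0 except that of Gimap1 between injured strains (-8.27 to -2.61), a member that passed the filter through the C57 group alone, and that of Gimap5 in C57 injury without both libraries (0.04 to 4.28). Gimap5 had 17, 5 and 1 counts in uninjured C57 replicates 1 to 3 and passed the filter through the injured group, so nothing is read from its interval.

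Likeness between members depended on both the libraries used and the group means. Over the 16 libraries Gimap6 correlated with Gimap9 (Pearson r = 0.70 in log2 CPM), and its values with Gimap1 and Gimap4 were 0.14 and -0.10. With group means removed over the same 16 libraries these were 0.65, 0.28 and -0.12. Over the 14 libraries without both doubtful ones they were 0.71, -0.03 and -0.24. When both changes were made together the order differed, with Gimap6 at 0.54 with Gimap8, 0.53 with Gimap5, 0.45 with Gimap4, 0.39 with Gimap1 and 0.21 with Gimap9. Gimap1, Gimap4, Gimap5 and Gimap8 correlated with each other at 0.57 to 0.76 over 16 libraries. Over 14 libraries with group means removed, the pairs among these 4 ran from 0.16 (Gimap5 and Gimap8) to 0.74 (Gimap1 and Gimap4), and Gimap5 stood at 0.40 with Gimap1 and 0.32 with Gimap4. The points share their libraries and groups, and Gimap1, Gimap5 and Gimap8 rest on few counts.

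Gimap4, Gimap1 and Gimap5 were higher where markers of blood vessels were higher. Gimap4 correlated with the summed CPM of 12 blood endothelial genes, among them Pecam1, Cdh5 and Kdr, at r = 0.92 (Spearman rho 0.90) over 16 libraries, Gimap1 at 0.89 (0.87) and Gimap5 at 0.80 (0.82). With group means removed the values were 0.94, 0.76 and 0.50, and 0.91, 0.73 and 0.42 without both doubtful libraries. Gimap6 and Gimap9 stood at 0.03 (-0.02) and -0.33 (-0.39). Without both doubtful libraries the values were 0.91 for Gimap4, 0.88 for Gimap1, 0.78 for Gimap5, -0.07 for Gimap6 and -0.35 for Gimap9, the value of Gimap6 being 0.45 once group means were removed as well. The endothelial sum was 157 to 306 CPM in C57 tendons at 7 dpi and 10.1 to 47.1 CPM in MRL tendons at 7 dpi, and 4 of the 12 genes (Egfl7, Esam, Pecam1 and Cldn5) were called lower in MRL, against 3.43% of all genes called (median log2 difference -3.03, against -0.06 over all genes). Markers of other cell types were compared between the injured strains in the same way. The tenocyte list had a median log2 difference of 0.90, with 1 of 10 genes, Scx, called higher in MRL and sums of 18586 to 36596 CPM in C57 and 34922 to 75013 CPM in MRL. Lower in MRL were 3 of 6 lymphatic endothelial genes (Mmrn1, Lyve1 and Flt4, the other 3 being below the filter), 3 of 8 genes of pericytes and smooth muscle (Rgs5, Notch3 and Acta2, median -3.31) and 4 of 12 of macrophages and monocytes (C1qa, C1qb, C1qc and Csf1r, median -0.97). Mmrn1 and Flt4 had at most 1 count in an injured MRL library and passed the filter through the C57 group alone, so the count of 3 is no support for the list. Over 16 libraries Gimap4, Gimap1 and Gimap5 correlated with the sum of the pericyte and smooth muscle genes at 0.69, 0.69 and 0.74 and with the lymphatic sum at 0.56, 0.72 and 0.49. Over 14 libraries with group means removed these were 0.33, 0.19 and 0.32, and 0.22, 0.14 and -0.16. Immune cell sums were also related to these 3 members over 16 libraries. The values were 0.60, 0.35 and 0.62 for 8 dendritic cell genes, and 0.51, 0.32 and 0.57 for the macrophage and monocyte genes. With group means removed over 14 libraries they were 0.65, 0.20 and -0.20, and -0.13, 0.06 and -0.56. C57 injured replicate 1, with the most skeletal muscle RNA, also had the highest blood endothelial sum (306 CPM) and the highest pericyte and smooth muscle sum (4207 CPM). In uninjured replicates 1 to 3 the sum was 59.8 to 154 CPM in C57 and 19.9 to 117 CPM in MRL, and MRL uninjured replicate 3 with 117 CPM was also the uninjured MRL library with the most Gimap1 and Gimap4. Gimap5 was instead highest there in replicate 1 (0.464 CPM), which had the lowest endothelial sum (19.9 CPM). The part of these cell types and of muscle in the levels of Gimap1, Gimap4 and Gimap5 was not tested.

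Lymphocyte markers were counted at low levels in most libraries. The sum over 19 T lymphocyte genes was 1.34 to 4.66 CPM in uninjured C57 replicates 1 to 3, 5.83 to 17.6 CPM in C57 at 7 dpi, 2.57 to 5.19 CPM in the libraries labelled uninjured MRL and 6.01 to 11.9 CPM in MRL at 7 dpi. It was 123 CPM in the library labelled C57 uninjured replicate 4, where Cd3d, Cd3e and Cd3g had no count. In uninjured C57 libraries 7 of the 19 genes were at 0, among them all CD3 chains named here, and in the libraries labelled uninjured MRL 7 were at 0, among them Cd8a and Trac. The sum over 10 B lymphocyte genes was 2.48 to 4.7 CPM in uninjured C57 and 11.9 to 21.2 CPM in uninjured MRL replicates 1 to 3, and 24.4 and 3.94 CPM in the libraries labelled C57 and MRL uninjured replicate 4. At 7 dpi it was 23.3 to 48.1 CPM in C57 and 3.9 to 31.1 CPM in MRL, with Ms4a1 at 0 in both groups, and that over 8 NK cell genes at most 3.9 CPM in any library. Of the genes of these 3 lists tested, edgeR called 1 of 2 T lymphocyte genes, Cd2, higher for MRL injury (log2 change 3.86, SE 0.86, adjusted p = 0.019), against 7.41% of all genes. The sum over all 19 was at most 5.19 CPM in the libraries labelled uninjured MRL, so Cd2 was low there and nothing is read from this count. Without both doubtful libraries both B lymphocyte genes tested (Cd79b and Ighm) and the 1 NK cell gene tested (Klrk1) were called higher for C57 injury, against 5.01% of all genes. Cd79b and Klrk1 had no count in any uninjured C57 library and passed the filter through the injured group alone, so nothing is read from these counts. In the same setting, Ighm was called higher in uninjured MRL than in uninjured C57 tendons, against 3.48%. The correlation of Gimap6 with the T lymphocyte sum was 0.26 over 16 libraries and 0.34 over 14. With the B lymphocyte sum Gimap6 stood higher, at 0.60 and 0.55, and with the NK cell sum at 0.04 and 0.03. Once group means were removed, its value with the B lymphocyte sum was 0.55 over 16 libraries and -0.01 over 14. Gimap9 stood at 0.48 and 0.39 with the B lymphocyte sum, and at 0.15 over 14 libraries with group means removed. Over 14 libraries Gimap4, Gimap1 and Gimap5 stood at 0.24, 0.12 and 0.49 with the T lymphocyte sum, at 0.16, 0.36 and 0.38 with the B lymphocyte sum and at 0.42, 0.35 and 0.49 with the NK cell sum. With group means also removed these were 0.13, 0.18 and 0.27, then 0.00, 0.27 and -0.33, and 0.14, 0.28 and -0.08. The part of lymphocytes in the levels of the members was not tested.

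**Figure D5:**
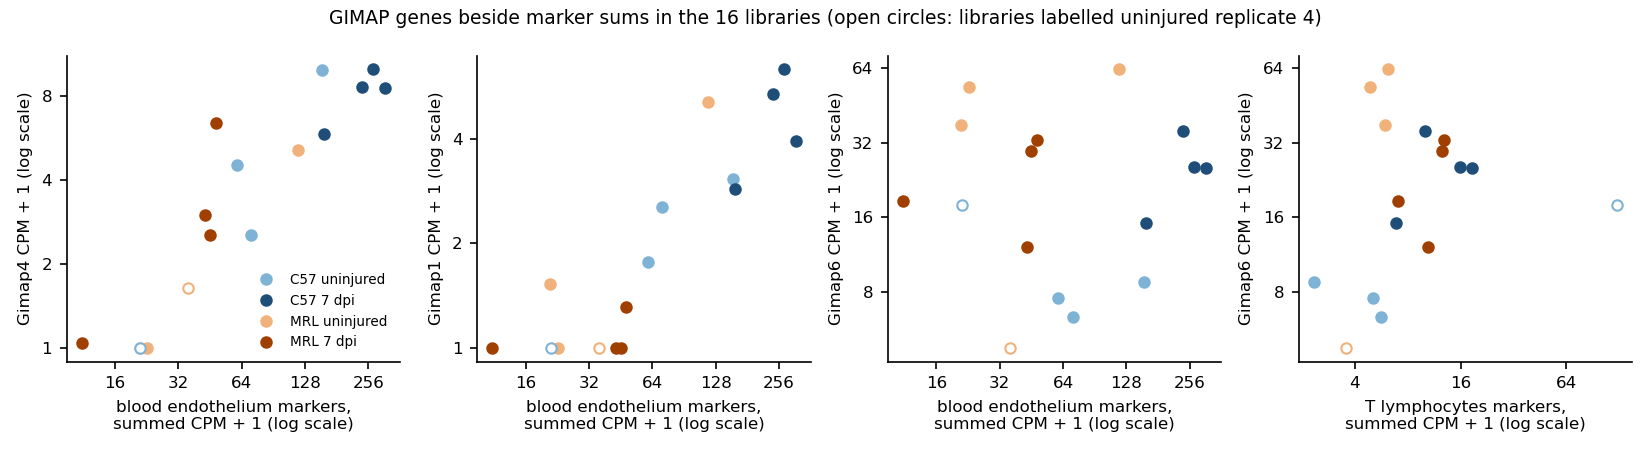
GIMAP genes (y axes, CPM + 1 on a log scale) beside the summed level of blood endothelial or T lymphocyte markers (x axes, CPM + 1 on a log scale) in the 16 libraries, coloured by group, with open circles for the libraries labelled uninjured replicate 4. Gimap4 and Gimap1 were higher where the endothelial sum was higher (r = 0.92 and 0.89), whereas Gimap6 was not (0.03), and Gimap6 showed a weak relation to the T lymphocyte sum (0.26).

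Genes of the pathways in which GIMAP proteins act were looked at as 3 lists. Of 14 genes of lymphocyte survival and interleukin-7 signalling, all tested, 0 were called for C57 injury (median log2 change 0.08, against -0.05 over all genes). There 1 was at an unadjusted p under 0.05 by edgeR, beside 2204 of 14424 genes, and 1, Il2rg, was called by DESeq2. For MRL injury 7 of the 14 were at an unadjusted p under 0.05 by edgeR, beside 4046 of 14274 genes (median -0.04, against -0.03). Of the 14, 2 were called and rose with MRL injury, against 7.41% of all genes called in either direction. These were Il7r, the interleukin-7 receptor, which had no count in any library labelled uninjured MRL and 86 to 274 counts in injured MRL (adjusted p = 0.0034, edgeR) and so passed the filter through the injured group alone, and Il2rg, the shared cytokine receptor chain (log2 change 5.25, SE 0.54, adjusted p = 0.00104, edgeR). Il2rg was likewise near 0 in uninjured MRL, and nothing is read from the count of 2. None of the 14 was called by edgeR between the injured strains (3 at an unadjusted p under 0.05, beside 3103 of 14626 genes), where DESeq2 called Il7r. DESeq2 also called Il7r in the interaction and Bak1 in MRL injury. Of 12 ATG8 autophagy genes 0 were called for C57 injury (2 at an unadjusted p under 0.05 by edgeR, beside 2204 of 14424 genes, and 0 called by DESeq2). For MRL injury 1, Gabarapl1, was called and fell (log2 change -1.19, SE 0.24, adjusted p = 0.0127, edgeR). There 6 of the 12 were at an unadjusted p under 0.05 by edgeR, beside 4046 of 14274 genes. A count of 1 in 12 is near the share of 7.41% over all genes and is no result about the list. The Gimap6 partner Gabarapl2 was not called in either, at 641 to 1356 counts in 15 libraries and 3167 in the remaining one, labelled C57 uninjured replicate 4. Of 8 tested genes of the programme of circulating lymphocytes, S1pr1, the receptor for sphingosine 1-phosphate that is also made by endothelium, rose with C57 injury (log2 change 1.63, SE 0.31, adjusted p = 0.0498, edgeR), 1 of 8 against 1.07% of all genes called. In MRL injury 3 of the 8 were called, against 7.41%: Il7r, with the limit given above, rose, while Klf2 (-1.52, SE 0.36, adjusted p = 0.024, edgeR) and Satb1 (-3.30, SE 0.95, adjusted p = 0.0499, edgeR) fell. Between the injured strains S1pr1 (-1.26) and Satb1 (-5.04) were lower in MRL, 2 of 8 against 3.43%. Without both doubtful libraries, Il2rg was also called higher for C57 injury, and Klf2 was no longer called for MRL injury. By DESeq2, Lef1 was also called in both injury comparisons and Satb1 in the interaction.

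The neighbours of the cluster were tested in the same fits. Of 12 protein-coding genes within 150 kb outside the cluster, 8 could be tested in the interaction: Atp6v0e2, Lrrc61, Rarres2, Repin1, Zfp775, AI854703, Tmem176b and Tmem176a. None was called by edgeR in any comparison with all libraries, where at most 2 had an unadjusted p under 0.05, and DESeq2 called 1, Atp6v0e2, in MRL injury. Without both libraries labelled uninjured replicate 4, Rarres2, the gene of the chemoattractant chemerin, was higher in uninjured MRL than C57 tendons (log2 difference 2.33, SE 0.15, adjusted p = 1.94e-05, edgeR), and so was Tmem176a (1.76, SE 0.30, adjusted p = 0.0078, edgeR). Rarres2 then also fell with MRL injury (-1.63, SE 0.36, adjusted p = 0.0284, edgeR). Its counts were 235 to 298 in uninjured C57 replicates 1 to 3 and 1286 to 1850 in uninjured MRL replicates 1 to 3, with 673 and 226 in the libraries labelled C57 and MRL uninjured replicate 4. The other 6 neighbours were not called there. These were 2 of 8 neighbours between uninjured strains, against 3.48% of all genes, and 1 of 8 in MRL injury, against 6.11%.

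The genes most like Gimap6 in log2 CPM over the 16 libraries were Mmp2, a gelatinase, Icam1, a leukocyte adhesion receptor, and H2-Q7, a class I histocompatibility gene, each at r = 0.84, then Gm44095 (0.81), Rem1 and Akna (0.80). With group means removed they were Serpina3k (0.94), Pi4kb, Ggt7 and Gm26880 (0.91), H2-Q7 (0.90) and Ebpl (0.89). Over 14 libraries Mmp2 (0.89), Rem1 (0.85) and Gm44095 (0.84) stayed among the closest 6, whereas with group means also removed none of the genes named for Gimap6 did, and Gm5751, 1700001O22Rik (both 0.95) and Prex2 (0.92) led. The mean of the members tested, with group means removed, was most like Kcnk3 (0.88), the endothelial guidance receptor Robo4 (0.86), and Ednrb, Sncg, St6galnac5 and the smooth muscle myosin gene Myh11 (0.85). Without both doubtful libraries, Kcnk3 (0.92) alone stayed among these 6, followed by Hoxb7 (0.92), Pi16 (0.91), Gata2 (0.89), Cd248 and Epha3 (0.88). Apart from Kcnk3, the lists with group means removed therefore rest on which libraries are used. These are the highest of 15941 correlations over libraries that share their groups and depth.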

How the data were processed

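Bulk RNA of 16 tendons was sequenced as single-end reads of 100 nt, after poly(A) selection per the labels. Per the submitters' processing notes, reads were trimmed (Trimmomatic 0.36), aligned to GRCm38.p5 (STAR 2.5.2b) and counted (featureCounts of Subread 1.5.0p3). Neither the gene annotation used for counting nor its strand setting is given in the sources used here, the labels and the study's methods name different library kits, and MRL reads were aligned to a C57BL/6J reference. The deposited counts are raw whole-number counts per gene symbol. CPM were computed here with TMM library sizes, except the limit set by 3 counts, which used the raw totals. Each comparison was fitted on its own groups over all genes in edgeR 4.0.16 (R 4.3.3; filterByExpr, robust quasi-likelihood test, Benjamini-Hochberg adjustment), and the interaction on all 16 libraries. Calls required an adjusted p under 0.05 and, except in the interaction, a change beyond 1 on the log2 scale. Scripts were tested on simulated data. Alternatives were DESeq2 1.42.0, RLE and upper-quartile factors, other filters, leaving out libraries, 1 fit over all libraries and a replicate block. The 8 members were named in every library, and other genes by place within 150 kb, by pathway list if called, and by the 6 highest correlations per reference. Members and lists were chosen with earlier results of these data known. Correlations over 14 libraries and the strain check were chosen after seeing the data. Replicates are single animals, and limits set by a count of 0 cover counting error only.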

Additional observations from a re-analysis of the deposited data

Results flagged for a closer look

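In 9 of 28 combinations of a member and a group of 4 libraries, 1 library lay apart from the other 3 by Dixon's criterion at the 95% level, where chance would flag about 1 in 20 groups of normally distributed values. That rate does not hold here: where the other 3 libraries are at or near 0, any single library with counts meets the criterion, so the number of such values is not read against chance. All were single high values, and all but that of Gimap4 were in members that rest on few counts. MRL uninjured replicate 3 stood apart in Gimap1 (4.12 CPM), Gimap4 (4.12 CPM) and Gimap8 (0.836 CPM), and MRL injured replicate 3 in Gimap1 (0.309 CPM) and Gimap8 (1.5 CPM). Uninjured C57 tendons held single high values of Gimap3 (replicate 2, 1.75 CPM) and Gimap8 (replicate 3, 1.47 CPM). The others were Gimap5 in MRL uninjured replicate 1 (0.464 CPM) and Gimap7 in C57 injured replicate 2 (0.185 CPM).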

How the results depend on the processing

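The call of Gimap1 between injured strains did not hold under every setting. The count of members called there was 1, and it was 0 with a filter of a mean of at least 10 counts, 0 with 1 fit over all 16 libraries, and 0 to 1 when single libraries were left out. The other 4 counts stayed at 0 under every alternative run. Several small changes turned in sign. Without both libraries labelled uninjured replicate 4, Gimap9 in C57 injury was 1.08 (with all, -0.13) and the interaction of Gimap4 was 0.05 (with all, -0.16). Same-numbered uninjured libraries did not deviate together (correlations from -0.262 to 0.0157), and with a replicate block 0 members were called between uninjured strains and the value of Gimap1 was -1.56 (with none, 0.08). When single libraries were left out, log2 values ran from -0.53 to 1.08 for Gimap9 in C57 injury, from -1.03 to 0.13 in MRL injury and from -0.05 to 0.63 between injured strains. Gimap6 between injured strains ran from -0.36 to 0.11 and Gimap1 between uninjured strains from -2.55 to 0.58. In the interaction they ran from -8.98 to -2.86 for Gimap1 and from -1.2 to 2.33 for Gimap4. Those of Gimap5 ran there from -2.53 to 1.19, of Gimap8 from -3.53 to 2.78 and of Gimap9 from -1.76 to 0.19, and Gimap9 was -2.13 without both. Over all genes, calls for C57 injury ranged from 10 without C57 uninjured replicate 3 to 750 without the library labelled replicate 4, beside 155 with all libraries and 907 by DESeq2, and calls between uninjured strains from 0 to 497 without both. For MRL injury they were 1057, beside 1808 by DESeq2 and 689 without MRL uninjured replicate 1, between injured strains 502, beside 1473 by DESeq2 and 227 with 1 fit over all libraries, and in the interaction 0, beside 210 by DESeq2. The cause was not tested. Few counts limit Gimap3, Gimap5, Gimap7 and Gimap8.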
